A study of Mus musculus with 10 samples.

Results

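The genes of the unfolded protein response and the integrated stress response are described here in 10 mouse mammary tumours. The set is 36 genes chosen by name from the 37882 genes of a deposited count table. It holds 12 chaperones and folding enzymes of the endoplasmic reticulum (ER), 4 genes of ER-associated degradation, 8 stress sensors and transcription factors, 4 stress-induced regulators, and 8 amino acid, one-carbon and tRNA-charging genes known as targets of the transcription factor Atf4. All 36 were found in the table, and all 36 were among the 14063 genes with enough counts to test. The tumours grew from a mouse mammary cancer cell line, MCa-M3C, implanted orthotopically in FVB/N mice. When they had reached about 100 mm3, the mice received PBS (Control, 5 libraries) or TMA-ARB (5 libraries) through the retro-orbital vein every day for 6 days. TMA-ARB is an angiotensin receptor blocker made to be activated in the tumour microenvironment, and it was given at 40 mg/kg of valsartan, an inhibitor of the angiotensin II type 1 receptor. Both groups shared the host strain and the single cell line, so the tumours model no other line. Whether every library came from its own animal is not stated, and p-values therefore measure only the spread between these libraries.

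The unfolded protein response starts at ER membrane proteins, IRE1 (gene Ern1), PERK (Eif2ak3) and ATF6 (Atf6), each held inactive by the chaperone BiP (Hspa5) until unfolded proteins draw BiP away. IRE1 splices Xbp1 mRNA, ATF6 is cleaved to a transcription factor, and PERK phosphorylates the initiation factor eIF2, which slows most translation and favours that of Atf4 mRNA. Other kinases phosphorylate eIF2 when amino acids or haem run short or when viral RNA is present, so Atf4 and its targets form a wider integrated stress response, and tumour cells short of oxygen or nutrients are known to engage both. Gene counts hold neither the splicing of Xbp1 nor the translation of Atf4.

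Promoter sequences that hold the letters of a stress element are shown, because these elements group the genes by the arm of the response that is known to act on them. Stretches that overlap an exon of the GENCODE release 21 annotation are not printed (Hspa5, Aars, Asns and Trib3). The ER stress element, ERSE (CCAAT and CCACG with 9 bases between them), is known as a site of ATF6 with NF-Y, and CARE (TGATGNAA) as a site of Atf4 with a C/EBP partner. RefSeq windows of GRCm38.p6 from 250 bases before to 50 after a gene's start were searched on both strands, and 33 of the 36 genes had a window (Atf6, Manf and Nars had none). ERSE was present in 8 of the 33 genes, against 0.137% of all 27025 genes with a window. Of the 8, 7 were among the 11 chaperone genes with a window, and the other was Syvn1. Each line runs 5′ to 3′ along the gene, and capitals mark the match, which reads as the reverse complement where it lies on the opposite strand.
Hsp90b1, chr10:86705618-86705676, minus strand: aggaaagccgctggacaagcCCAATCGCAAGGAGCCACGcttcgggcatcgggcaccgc
Hsp90b1, chr10:86705513-86705571, minus strand, match on the opposite strand: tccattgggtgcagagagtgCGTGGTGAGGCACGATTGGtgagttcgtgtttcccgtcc
Dnajc3, chr14:118937807-118937865, plus strand: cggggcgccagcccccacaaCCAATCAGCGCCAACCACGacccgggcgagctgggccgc
Calr, chr8:84847055-84847113, minus strand, match on the opposite strand: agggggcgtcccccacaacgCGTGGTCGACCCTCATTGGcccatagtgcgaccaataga
Pdia6, chr12:17266471-17266529, plus strand: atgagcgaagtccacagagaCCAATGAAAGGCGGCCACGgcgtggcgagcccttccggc
Canx, chr11:50325780-50325838, minus strand: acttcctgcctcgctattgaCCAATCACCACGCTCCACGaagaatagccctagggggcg
Creld2, chr15:88819500-88819558, plus strand, match on the opposite strand: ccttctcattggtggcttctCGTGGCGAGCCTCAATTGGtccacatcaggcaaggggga
Syvn1, chr19:6046512-6046570, plus strand: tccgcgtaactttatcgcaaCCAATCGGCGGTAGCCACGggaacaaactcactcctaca

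CARE was present in 6 of the 33 genes (Aars, Asns, Chac1, Herpud1, Slc7a11 and Trib3), against 4.51% of all genes with a window. Herpud1 also held ERSE-II (ATTGG and CCACG with 1 base between them), another ER stress element, which 0.0444% of genes with a window held. It was the only one of the 33 genes in which both an ER stress element and CARE were found. No ERSE or ERSE-II overlapped a CARE in the windows of the 33 genes. Slc7a11 held another CARE on the opposite strand, left in lower case within the line below. A match describes the letters and is no evidence of binding.
Herpud1 ERSE-II, chr8:94386357-94386407, plus strand: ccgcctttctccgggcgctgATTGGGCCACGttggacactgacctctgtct
Herpud1 CARE, chr8:94386297-94386344, plus strand, match on the opposite strand: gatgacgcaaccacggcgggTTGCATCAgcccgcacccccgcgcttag
Chac1 CARE, chr2:119351029-119351076, plus strand, match on the opposite strand: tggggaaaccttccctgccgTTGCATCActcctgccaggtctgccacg
Slc7a11 CARE, chr3:50443652-50443699, minus strand: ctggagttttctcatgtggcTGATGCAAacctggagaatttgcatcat

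The comparison of treated with control tumours asks whether the receptor blocker changed these genes, and no gene of the set passed the test. EdgeR's quasi-likelihood test called 0 of the 36 genes at a Benjamini-Hochberg adjusted p under 0.05, where it called 0% of all genes tested, and the adjusted p was 0.997 for each of the 36. At an unadjusted p under 0.05 it gave 0 of the 36, against 3.25% of all genes (1.59% higher and 1.66% lower under TMA-ARB). DESeq2 also called 0 of the 36, against 0.0142% of all genes. The 5 treated and the 5 control values overlapped for all 36 genes, and 0.526% of all genes did not overlap.

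The sizes of the differences were small for most of the set. Fold changes are given as log2 of TMA-ARB over Control. Their median over the 36 genes was -0.030, beside 0.021 over all genes tested, and 15 of the 36 lay above 0, beside 52.8% of all genes. They ran from -0.42 for Atf5 to 0.49 for Chac1, with standard errors of 0.16 to 0.53. The 95% interval lay inside a 2-fold change in both directions for 31 genes. It reached 2-fold for Ddit3, Trib3, Chac1, Ppp1r15a and Slc7a11, so for these 5 genes the 10 libraries did not settle whether a change of that size was present.

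**Figure D1:**
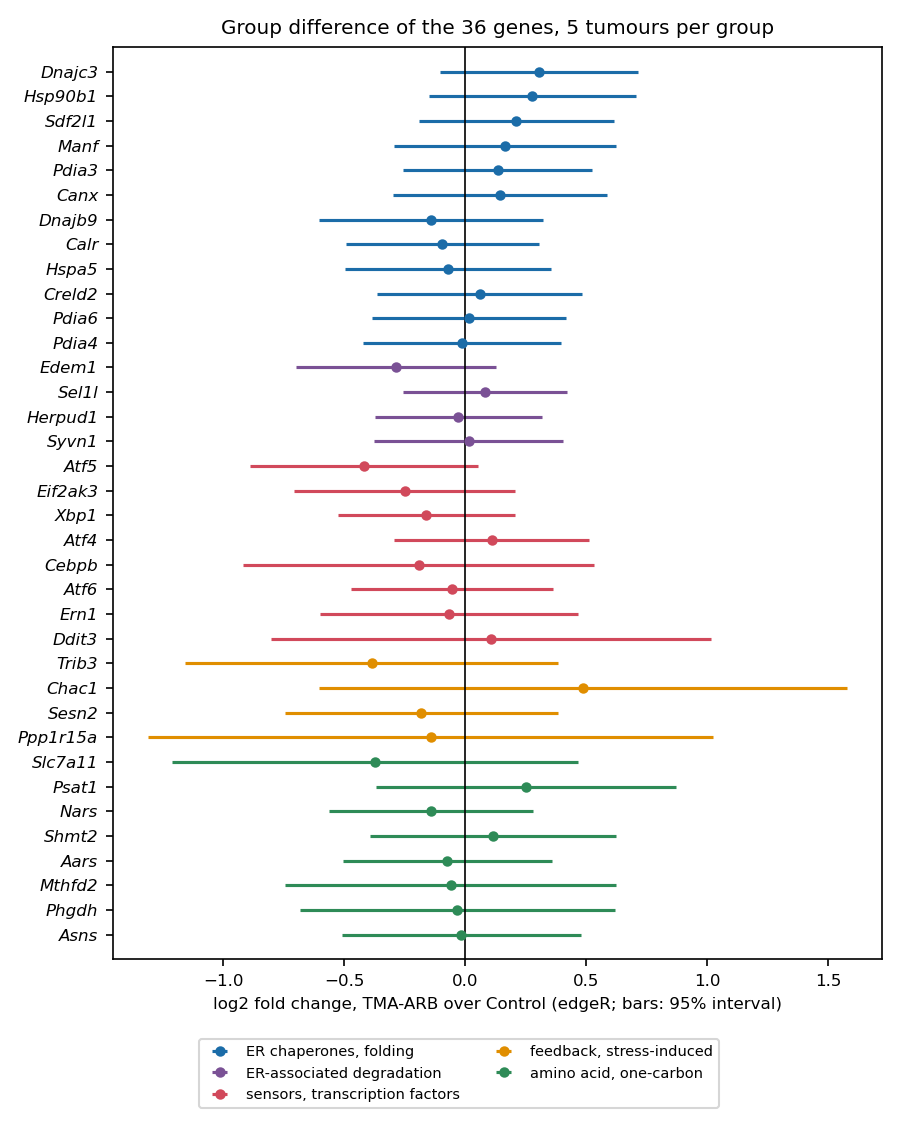
Log2 fold change of TMA-ARB over Control (horizontal axis) for each of the 36 genes (rows), with points for edgeR's estimate, bars for the 95% interval and colours for the 5 roles. All 36 intervals include 0, and the widest belong to Ppp1r15a and Chac1.

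The libraries held 12742953 to 16884621 counts. The share of counts from the 37 mitochondrially encoded genes was 2.07% to 6.63% in Control and 2.22% to 25% under TMA-ARB, with TMA-ARB replicate 9 the highest (difference of means 6.31 percentage points, two-sided exact permutation p = 0.143, smallest possible 0.00794; without TMA-ARB replicate 9 the difference was 2.69 and without TMA-ARB replicate 6 it was 8.38, p = 0.0397). Of 10 luminal epithelial markers, Krt18 measured 62.1 to 201 CPM (counts scaled by library size and edgeR's TMM factors) in every tumour, while Elf3, Cldn7, Esrp1, Cldn4 and Cldn3 averaged under 1 CPM. The summed level of the 10 was 83.3 to 159 CPM in Control and 106 to 238 CPM under TMA-ARB. Epcam and Krt19 were highest in TMA-ARB replicate 6, at 12.1 and 51.6 CPM. In bulk tissue, fewer cells of a type and less RNA per cell cannot be told apart.

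Chaperones and folding enzymes, which fold secreted and membrane proteins in the ER, held the highest levels of the set. Of the 12, 8 had a log2 fold change above 0, with a median of 0.097, and 0 passed. Per kilobase of merged exons and averaged over the 10 tumours, Hsp90b1 (GRP94, the HSP90 of the ER) led at 563 CPM, followed by the lectin chaperone Calr at 404 and its partner, the disulfide isomerase Pdia3, at 335. BiP itself, Hspa5, stood at 244 and the membrane lectin Canx at 147. Lowest of the 12 was Dnajb9, a BiP co-chaperone, at 16.7. Neighbours in this order were often closer than their spread: under TMA-ARB, Calr was 391 ± 84.8 and Pdia3 351 ± 67.9 CPM per kilobase (SD, n = 5).

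Hspa5 (chr2:34771970-34777547, plus strand, GRCm38), the gene most used as a readout of ER stress, measured 1038, 1404, 917, 892 and 1040 CPM in Control replicates 1 to 5. Under TMA-ARB it measured 995, 1317, 1003, 830 and 888 CPM in replicates 6 to 10. One tumour of each group stood high, Control replicate 2 and TMA-ARB replicate 7, and the other 8 lay between 830 and 1040 CPM in both groups. The log2 fold change was -0.072 ± 0.20 (SE), with a 95% interval of -0.50 to 0.35. Its values were shown after they had been seen, as were those of Sdf2l1, Manf, Pdia6, Atf4, Ddit3, Asns, Mthfd2, Aars and Nars.

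Hsp90b1 (chr10:86690209-86705509, minus strand) measured 1682, 2170, 2046, 2269 and 2090 CPM in Control and 1734, 2636, 2455, 3155 and 2451 CPM under TMA-ARB. Of the 5 treated tumours, 4 were above every control and TMA-ARB replicate 6 was below 4 of the 5 controls. With all 10 libraries the log2 fold change was 0.28 ± 0.20 (SE; unadjusted p = 0.186). Without TMA-ARB replicate 6 it was 0.39, with an unadjusted p of 0.0389 and an adjusted p of 0.579. The highest value belonged to TMA-ARB replicate 9, the library with the largest mitochondrial share. Among libraries below a 5% share the log2 fold change was 0.14 ± 0.35 (SE), and among those above it 0.31 ± 0.24. The cause of the high value in that tumour was not tested.

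Dnajc3 (p58IPK, a BiP co-chaperone that also inhibits PERK; chr14:118937976-118981697, plus strand) had the smallest p of the 12 genes. It measured 112, 114, 69.6, 92.8 and 107 CPM in Control and 124, 159, 96.8, 128 and 104 CPM under TMA-ARB. The treated values were above the control mean in 4 of 5 tumours, but only 3 of them exceeded the highest control. Its log2 fold change was 0.30 ± 0.19 (SE; unadjusted p = 0.132).

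The chaperones stood highest together in TMA-ARB replicate 7. That tumour was above the 10-tumour mean for 12 of the 12 genes and the highest of all tumours for 9. In Sdf2l1, a component of the ER chaperone complex, it measured 90.4 CPM, the other treated tumours 59.2 to 64.9 and the controls 44.5 to 77.2. Manf, a secreted factor released on ER stress, reached 309 CPM there, where the other 9 tumours lay at 132 to 196. Pdia6, an isomerase that also restrains IRE1, reached 580 CPM there and 316 to 448 elsewhere. Averaged over the 12 genes on the log2(CPM + 0.5) scale, TMA-ARB replicate 7 lay 0.46 above the 10-tumour mean and the other 9 tumours between -0.16 and 0.085. Without it the median log2 fold change of the 12 genes was -0.060, so the direction of the chaperone group rested on this tumour.

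Of the 8 genes with an ERSE in the window, 5 were highest in TMA-ARB replicate 7 (Calr, Canx, Creld2, Dnajc3 and Pdia6). The other 3 were not: Hspa5 was highest in Control replicate 2, Hsp90b1 in TMA-ARB replicate 9 and Syvn1 in TMA-ARB replicate 10. Chaperone genes in whose window no ERSE was found did much the same. Sdf2l1, Pdia3 and Pdia4 were also highest in TMA-ARB replicate 7, and Dnajb9 in TMA-ARB replicate 8. Manf, which had no window, was highest in TMA-ARB replicate 7 too. The peak in that tumour was not confined to genes in whose window the exact letters were found. Only exact letters in these windows were searched, so the search cannot show that the other genes lack the element. The Pdia6 and Syvn1 promoters shown above each hold their ERSE on the strand of the gene, and their highest tumours differed.

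Plasma cells are packed with ER, and their markers were read beside the chaperones. Of 14 found in the table, 10 averaged under 1 CPM, among them Mzb1, Igj and Tnfrsf17, and Ighg3 was at 0 in every library. The summed level was 233 to 457 CPM in Control and 162 to 305 CPM under TMA-ARB, mostly Sdc1, which epithelial cells also express. TMA-ARB replicate 7, with the highest chaperones, had the highest summed level of the treated tumours (305 CPM), of which Sdc1 was 291 where the other treated tumours held 145 to 235. Mzb1 was also highest among treated tumours there, at 0.592 CPM, while Ighm was at 2.11 CPM, the lowest of the 10 tumours, and Igkc at 0.658. The part of plasma cells in the chaperone levels was not tested.

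ER-associated degradation genes, which retrieve misfolded proteins for the proteasome, were the steadiest of the set. Of the 4, 2 lay above 0 and 2 below, with a median log2 fold change of -0.0068. Per kilobase they ran from 8.95 CPM (Sel1l) to 16.1 (Herpud1). Herpud1, a membrane protein of the retrotranslocation complex (chr8:94386438-94395377, plus strand), measured 30.9, 44.5, 34.1, 39.7 and 40.9 CPM in Control and 33.5, 34.4, 40.8, 38.7 and 38.9 CPM under TMA-ARB. Its highest tumour was 1.44 times its lowest, the narrowest range of the 36 genes, whose median ratio was 2.10. Control and treated means gave a log2 fold change of -0.028 ± 0.16 (SE).

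Edem1, a lectin that hands misfolded glycoproteins to degradation (chr6:108828641-108859356, plus strand), had the smallest p of the 4. It measured 113, 130, 101, 94.8 and 84.6 CPM in Control and 107, 105, 82.4, 60.7 and 74.5 CPM under TMA-ARB. Only 3 treated tumours were below every control, and the groups overlapped from 84.6 to 107 CPM. For Edem1 the log2 fold change was -0.29 ± 0.19 (SE; unadjusted p = 0.161). Sel1l, the adaptor of the ubiquitin ligase that Syvn1 encodes (chr12:91806043-91849157, minus strand), measured 66.8, 82.1, 66.4, 80.8 and 75.6 CPM in Control and 80.3, 62.8, 75.6, 95.6 and 79.3 CPM under TMA-ARB (log2 fold change 0.083 ± 0.16). Syvn1 ran from 46.0 to 56.0 CPM in Control and from 37.8 to 66.0 under TMA-ARB, a wider range around nearly the same mean.

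Among the sensors and transcription factors, 6 of 8 had a log2 fold change below 0, with a median of -0.11, and 0 passed. Without Control replicate 2 the median was 0.0047, so the direction rested on that tumour. The sensors were scarce: per kilobase and over all tumours Eif2ak3 stood at 2.96 CPM, Atf6 at 3.34 and Ern1 at 3.52, steps within the spread of each gene. Their downstream factors were more abundant, with Xbp1 at 32.5 CPM per kilobase, Atf4 at 114 and Cebpb at 126.

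Atf5, a factor whose translation rises when eIF2 is phosphorylated (chr7:44812256-44816658, minus strand), had the smallest p of all 36 genes. It measured 43.9, 57.6, 41.2, 38.8 and 49.8 CPM in Control and 49.1, 25.6, 43.4, 24.6 and 30.3 CPM under TMA-ARB. TMA-ARB replicates 7, 9 and 10 were below every control, and replicates 6 and 8 were inside the control range. Its log2 fold change was -0.42 ± 0.22 (SE; 95% interval -0.89 to 0.053; unadjusted p = 0.0775). Limma-voom with sample weights gave -0.51 with an unadjusted p of 0.0138 and an adjusted p of 0.491.

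Eif2ak3 (PERK; chr6:70844515-70905245, plus strand) measured 14.1, 24.0, 18.5, 19.2 and 21.3 CPM in Control and 19.5, 14.3, 20.6, 12.4 and 14.7 CPM under TMA-ARB. The groups overlapped over most of their range, with a log2 fold change of -0.25 ± 0.21 (SE; unadjusted p = 0.258). Ern1 ran from 18.8 to 48.0 CPM in Control and from 21.5 to 33.1 under TMA-ARB, and Atf6 from 27.5 to 42.5 and from 21.6 to 37.8. In all 3 sensors the highest of the 10 tumours was Control replicate 2. Xbp1, the mRNA that IRE1 splices, was also highest there, with 85.0 to 139.5 CPM in Control and 82.9 to 114 under TMA-ARB.

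Atf4 (chr15:80255184-80257541, plus strand) measured 210.1, 333, 267, 246 and 239 CPM in Control and 213, 268, 355, 295 and 267 CPM under TMA-ARB. Control replicate 2 and TMA-ARB replicate 8 were the highest of their groups, and Control replicate 1 and TMA-ARB replicate 6 the lowest. EdgeR gave a log2 fold change of 0.11 ± 0.19 (SE; 95% interval -0.29 to 0.51).

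Ddit3 encodes CHOP, the factor that ties prolonged stress to cell death (chr10:127290774-127296288, plus strand). It was highest in the same tumours as Atf4, on a wider scale, with 35.6, 82.5, 51.3, 41.5 and 44.9 CPM in Control and 15.0, 32.9, 103, 58.3 and 67.0 CPM under TMA-ARB. Its highest tumour, TMA-ARB replicate 8, was 6.86 times its lowest, TMA-ARB replicate 6, and both were treated. Its log2 fold change was 0.11 ± 0.42 (SE; 95% interval -0.80 to 1.02). Ddit3 overlaps Mars on the opposite strand, and the strand setting of the counting was not given in the sources used here.

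Cebpb, a partner of Atf4 and a factor of inflammation (chr2:167688915-167690418, plus strand), had the highest level per kilobase of the 8. It measured 247, 206, 264, 202 and 92.2 CPM in Control and 136, 81.7, 290.2, 149 and 228 CPM under TMA-ARB. The lowest values were 92.2 and 81.7 CPM and the highest 264 and 290.2, so the spread inside each group was larger than the step between their means. EdgeR gave a log2 fold change of -0.19 ± 0.34 (SE; unadjusted p = 0.578), and limma-voom with sample weights gave the opposite sign, 0.25. Cebpb overlaps the transcript of Tmem189 on the opposite strand.

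The 4 stress-induced regulators varied most between tumours, with a median ratio of highest to lowest of 5.37. One lay above 0 and 3 below, with a median log2 fold change of -0.16, and 0 passed. Without Control replicate 2 that median was 0.12. Control replicate 2 was the highest tumour for 3 of the 4 and TMA-ARB replicate 8 for the other one, and these tumours were above the 10-tumour mean for 4 of 4.

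Ppp1r15a encodes GADD34, which guides a phosphatase to eIF2 and so ends the translation block (chr7:45522916-45526268, minus strand). It measured 30.4, 70.5, 32.6, 20.7 and 30.1 CPM in Control and 12.9, 12.2, 85.3, 29.4 and 27.3 CPM under TMA-ARB. Its ratio of highest to lowest, 6.97, was the largest of the 36 genes, and both ends were treated tumours. The log2 fold change was -0.14 ± 0.53 (SE; 95% interval -1.31 to 1.02). Leaving out Control replicate 2 gave 0.23, and leaving out TMA-ARB replicate 8 gave -0.86 (unadjusted p = 0.0455, adjusted 0.914).

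Chac1, an enzyme that breaks down glutathione (chr2:119351229-119354381, plus strand), measured 4.08, 9.09, 2.09, 1.36 and 4.79 CPM in Control and 3.63, 2.37, 7.53, 9.02 and 7.64 CPM under TMA-ARB. TMA-ARB replicates 8, 9 and 10 and Control replicate 2 were high, and the other 6 tumours were below 5 CPM. The lowest value rested on 19 counts. Its log2 fold change was 0.49 ± 0.51 (SE; unadjusted p = 0.353), and without Control replicate 2 it was 0.96 (unadjusted p = 0.0768).

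Trib3, a pseudokinase that binds Atf4 and dampens it (chr2:152337422-152344032, minus strand), measured 5.72, 14.5, 7.39, 5.52 and 5.52 CPM in Control and 4.85, 3.55, 7.98, 4.82 and 8.38 CPM under TMA-ARB. Control replicate 2 stood alone at the top, and the other 9 tumours of both groups shared a range of 3.55 to 8.38 CPM. The log2 fold change was -0.39 ± 0.36 (SE; unadjusted p = 0.301), and -0.031 without Control replicate 2. Sesn2, which restrains the growth kinase complex mTORC1, ran from 7.00 to 15.4 CPM in Control and from 7.04 to 11.0 under TMA-ARB.

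The 8 amino acid, one-carbon and tRNA-charging genes followed another order of tumours. Of the 8, 6 lay below 0, with a median log2 fold change of -0.046, and 0 passed. Without TMA-ARB replicate 8 the median was 0.11, and without TMA-ARB replicate 6 it was -0.25. TMA-ARB replicate 6 was highest for 6 of the 8 genes and above the mean for 8, and TMA-ARB replicate 8 was lowest for 5 and above the mean for 0. Averaged over the 8 genes, these tumours lay at 0.57 and -0.62 on the log2 scale, and the controls between -0.13 and 0.28. Of the 5 luminal epithelial markers that could be tested, Krt8, Krt19, Epcam and Cdh1 were also highest in TMA-ARB replicate 6. Krt18, the most abundant of them, was at 92.4 CPM there and highest in TMA-ARB replicate 8, at 201 CPM. The summed level of the 10 markers was 238 CPM in both tumours, the highest and the lowest for the amino acid genes. The part of these markers in the result was not tested.

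Phgdh, which commits glucose carbon to serine synthesis (chr3:98313170-98339990, minus strand), was the most abundant of the 8 at 84.4 CPM per kilobase. It measured 278, 146, 238, 203 and 194 CPM in Control and 319, 306, 97.7, 165 and 150.2 CPM under TMA-ARB. The treated tumours fell into both tails, with replicates 6 and 7 above every control and replicate 8 below every one. EdgeR gave a log2 fold change of -0.032 ± 0.30 (SE; 95% interval -0.68 to 0.62). Processed pseudogenes match its transcript at 95.3% to 98.7% identity, and the 4 of them in the table held 3 to 23 counts each over all libraries, beside 31591 for Phgdh.

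Psat1, the next enzyme of that pathway (chr19:15904678-15947337, minus strand), measured 56.4, 39.7, 46.6, 44.2 and 48.8 CPM in Control and 73.2, 100.0, 34.8, 34.2 and 38.0 CPM under TMA-ARB. Treated replicates 6 and 7 were above every control and replicates 8, 9 and 10 below every control, so that all 5 controls fell in the gap between them. The log2 fold change was 0.25 ± 0.29 (SE; unadjusted p = 0.40), and -0.052 without TMA-ARB replicate 7. Mthfd2, the mitochondrial one-carbon enzyme, had the same layout, with 23.6 to 38.8 CPM in Control and 52.6, 42.8, 14.8, 20.9 and 19.3 CPM under TMA-ARB (log2 fold change -0.059 ± 0.32).

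Slc7a11, the cystine and glutamate exchanger xCT (chr3:49892526-50443614, minus strand), had the smallest p of the 8. It measured 10.5, 9.20, 6.21, 3.44 and 3.28 CPM in Control and 5.45, 6.51, 2.51, 5.33 and 5.34 CPM under TMA-ARB. All 5 treated values were below the control mean of 6.52, but Control replicates 4 and 5 were below 4 of them. EdgeR gave a log2 fold change of -0.37 ± 0.39 (SE; unadjusted p = 0.355). Its transcript shares 373 bases with tubulin genes such as Tuba1b, which held 218208 counts beside 874 for Slc7a11, so its counts are uncertain.

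Asns makes asparagine and is a textbook Atf4 target (chr6:7675169-7693254, minus strand). It measured 41.7, 41.8, 53.6, 31.1 and 39.9 CPM in Control and 62.9, 46.0, 28.1, 37.9 and 31.1 CPM under TMA-ARB, with means of 41.7 ± 8.01 and 41.2 ± 13.9 (SD, n = 5). The tRNA synthetases Aars and Nars were highest in TMA-ARB replicate 6, at 209 and 253 CPM. The other treated tumours lay at 115 to 127 and at 133 to 160, and the controls at 122 to 179 and at 161 to 208. Shmt2, which feeds the mitochondrial one-carbon pathway, was highest in the same tumour at 148 CPM, with 56.9 to 119 CPM in Control. The Aars transcript shares 1326 bases with that of Exosc6, a gene absent from the count table, so the counts of Aars are uncertain.

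**Figure D2:**
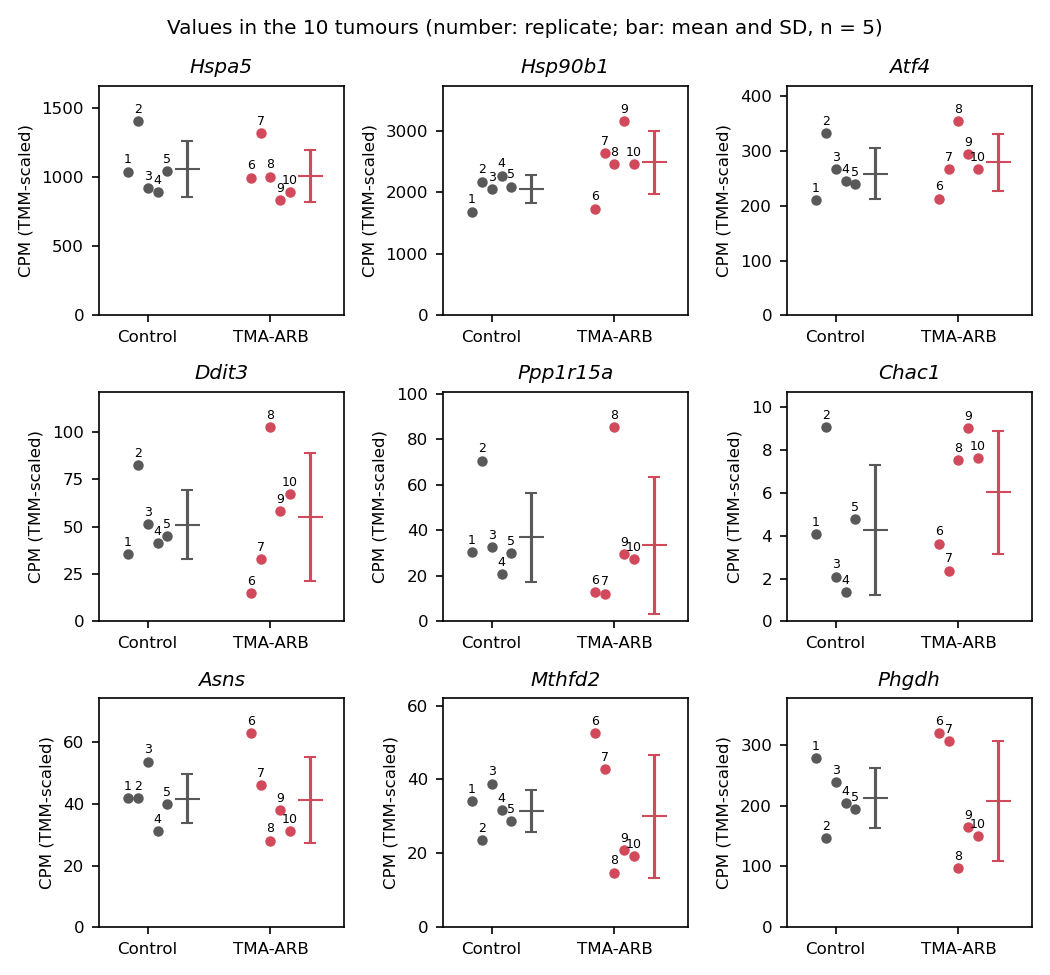
TMM-scaled CPM (vertical axes, from 0) of 9 genes in the 5 Control and 5 TMA-ARB tumours, with points numbered by replicate and a bar for the mean and SD. The groups overlap for each gene. TMA-ARB replicate 8 is the highest tumour for Atf4, Ddit3 and Ppp1r15a and the lowest for Asns, Mthfd2 and Phgdh.

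The groups overlapped for each gene, and a few tumours held most of the highest values. Over the 36 genes, Control replicate 2 was the highest tumour for 11, TMA-ARB replicate 7 for 10, TMA-ARB replicate 6 for 6 and TMA-ARB replicate 8 for 5. Control replicates 3, 4 and 5 were the highest for 0. The lowest tumour was TMA-ARB replicate 8 or 9 for 7 genes each and TMA-ARB replicate 7 for 6. No share over all tested genes is set beside these counts. They do not show whether these tumours stand out more in the 36 genes than in others.

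Role by role, the same few tumours stood at the ends. Mean log2 deviations from the 10-tumour mean were 0.50 for the sensors and factors in Control replicate 2 and 0.34 in TMA-ARB replicate 8, and 1.00 and 0.68 for the stress-induced regulators. In TMA-ARB replicate 7, the tumour with the highest chaperones, the sensors and factors lay at -0.29 and the regulators at -0.80, the lowest of the 10 for both lists. The chaperones of Control replicate 2 and TMA-ARB replicate 8, the tumours with the highest regulators, lay at 0.085 and -0.048. Control replicate 2 also had the highest summed levels of the endothelial (547 CPM), fibroblast (6604), leukocyte (1575) and plasma cell (457) marker lists, which ran from 303 to 487, 5095 to 6385, 493 to 1556 and 162 to 344 CPM in the other 9 tumours. The part of these cells in its levels was not tested.

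Genes known as targets of Atf4 also parted from one another. In TMA-ARB replicate 8 the regulators were high (0.68) and the amino acid genes low (-0.62), and in TMA-ARB replicate 6 the regulators were low (-0.41) and the amino acid genes high (0.57). Atf4 mRNA itself was the highest of the 10 tumours in TMA-ARB replicate 8, at 355 CPM, and at 213 in TMA-ARB replicate 6. Of the 6 genes with a CARE in the window, Chac1, Trib3 and Herpud1 were highest in Control replicate 2, Aars and Asns in TMA-ARB replicate 6 and Slc7a11 in Control replicate 1.

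**Figure D3:**
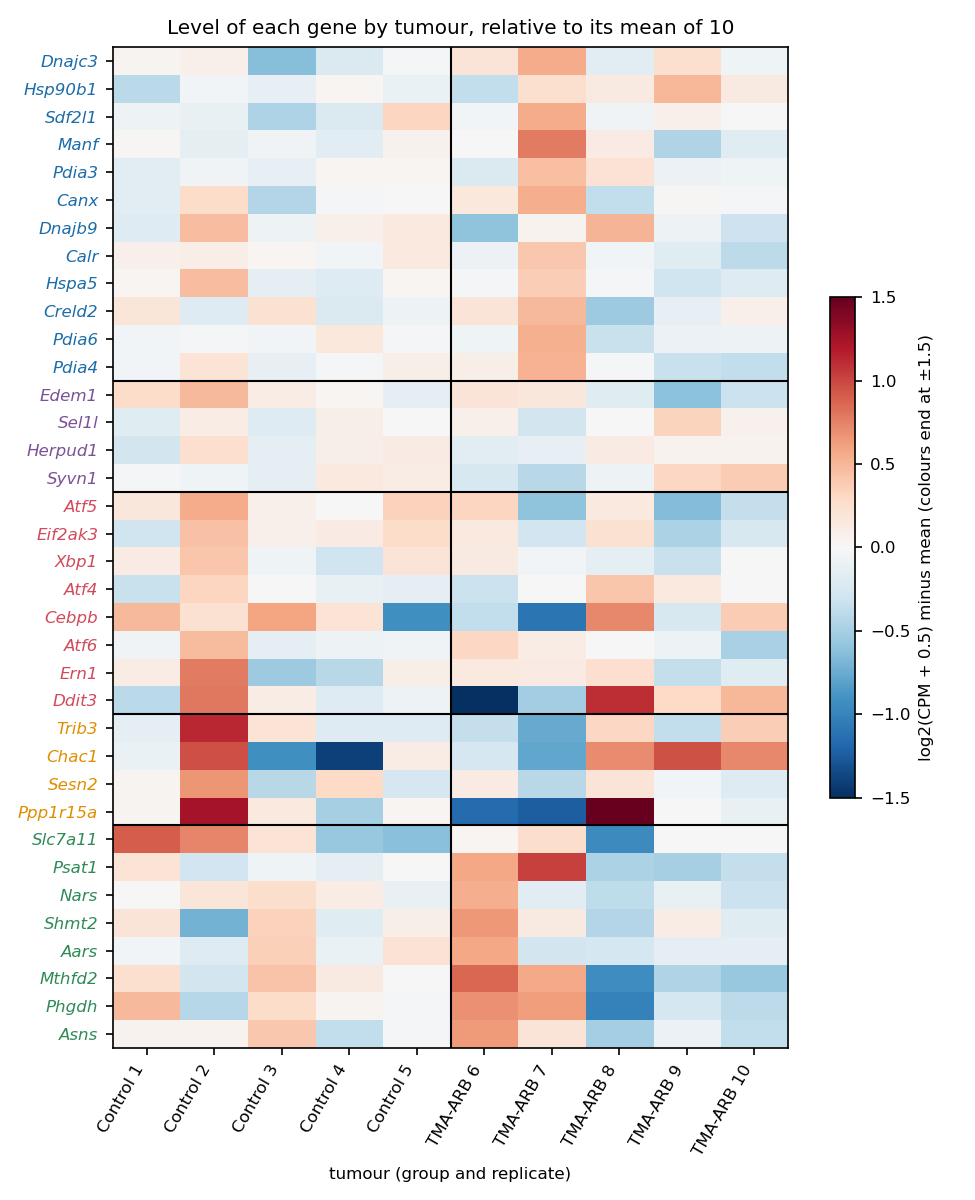
Log2(CPM + 0.5) of each of the 36 genes (rows, coloured by role) in each tumour (columns), relative to the gene's mean over 10 tumours, with red above and blue below. TMA-ARB replicate 7 is red for 12 of 12 chaperones, and TMA-ARB replicate 8 is blue for 8 of 8 amino acid genes.

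Markers of low oxygen and of acute activation were read beside the regulators and factors. The summed level of 17 hypoxia and glycolysis genes was 6681 to 13250 CPM in Control and 3489 to 12922 CPM under TMA-ARB, with none of the 17 under 1 CPM. It was highest in Control replicate 2 and next highest in TMA-ARB replicate 8, the tumours with the highest regulators. Control replicate 5 followed at 9260 CPM, but its regulators lay at -0.075 and its factors at -0.037. The summed level was lowest in TMA-ARB replicate 6, the tumour with the highest amino acid genes. The lowest regulators were those of TMA-ARB replicate 7 (-0.80), where the sum was 5812 CPM. Adm, a secreted peptide induced by low oxygen, measured 240.3 CPM in Control replicate 2, 437 in TMA-ARB replicate 8 and 4.18 in TMA-ARB replicate 6. The part of low oxygen in the levels of these genes was not tested.

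Immediate early genes, which respond within minutes to stimuli and to tissue handling, were high in the same tumours and in others. The summed level of 15 was 596 to 1047 CPM in Control and 458 to 1090 CPM under TMA-ARB, with 1 of the 15 (Egr3) averaging under 1 CPM. It was highest in TMA-ARB replicate 8 and Control replicate 2 and lowest in TMA-ARB replicate 7. As a mean log2 deviation, Control replicate 1 lay as high on these genes (0.52) as TMA-ARB replicate 8 (0.53), and it was the highest tumour for 5 of the 14 that could be tested, with its regulators at -0.039 and its factors at -0.025. Control replicate 3 lay at 0.24, with its regulators at -0.25. All 14 that could be tested had a log2 fold change below 0 (median -0.35), and 0 passed. Atf3, which is on this list, is also a target of Atf4. The part of tissue handling was not tested.

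**Figure D4:**
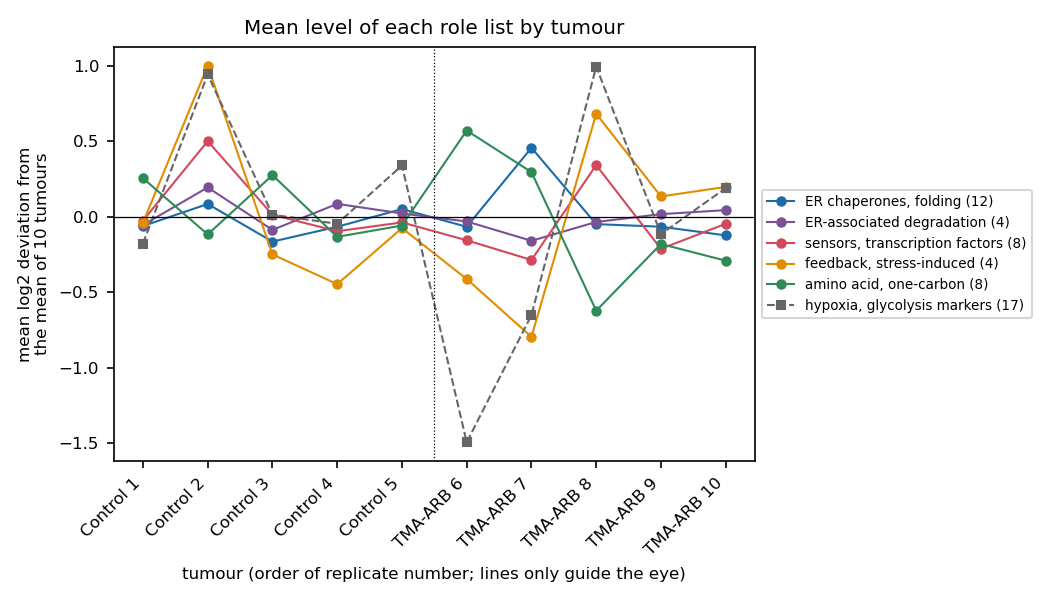
Mean log2 deviation from the 10-tumour mean (vertical axis) of the 5 role lists and of 17 hypoxia and glycolysis genes in each tumour (horizontal axis), with the number of genes in brackets. The regulators and the hypoxia genes are both above 0.6 in Control replicate 2 and TMA-ARB replicate 8, where the amino acid genes are at -0.12 and -0.62.

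The mitochondrial share moved with the same split among treated tumours, so the comparison was repeated on each side of a 5% share, a line added after the data had been seen. Below it were 3 Control and 2 TMA-ARB libraries (replicates 6 and 7), and above it 2 Control and 3 TMA-ARB libraries (replicates 8, 9 and 10). The log2 fold change had opposite signs on the sides for 25 of the 36 genes, and for 55.7% of the 13819 genes tested on both sides. For Ppp1r15a it was -1.80 below the line and 0.82 above, for Ddit3 -1.19 and 0.71, and for Chac1 -0.99 and 2.20. Except for Slc7a11 (-0.35 and -0.15), the amino acid genes went the other way. Values were 0.73 and -0.96 for Mthfd2, 0.84 and -0.36 for Psat1 and 0.60 and -0.69 for Phgdh. Nars (0.21 and -0.47) and Aars (0.21 and -0.34) were among those that moved less. Hspa5 was at -0.0071 and -0.0031.

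The difference between the sides was tested as an interaction in edgeR over all genes. It called 0 of the 36 genes, against 0.0711% of all genes, with a smallest adjusted p of 0.173 (Mthfd2). At an unadjusted p under 0.05 it gave 7 of the 36 (Mthfd2, Chac1, Psat1, Ddit3, Phgdh, Ppp1r15a and Asns), against 10.6% of all genes. Within the sides 0 genes of the set passed. At an unadjusted p under 0.05 there were 4 of the 36 below the line (Mthfd2, Psat1, Ddit3 and Ppp1r15a), against 8.16% of all genes, and 5 above it (Mthfd2, Nars, Ddit3, Chac1 and Phgdh), against 7.24%. The line follows a split of treated tumours already seen in these genes, so the counts at an unadjusted p restate that split. They are no independent test of it. With 2 or 3 libraries per group on a side, the side cannot be told apart from the single tumours it holds.

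**Figure D5:**
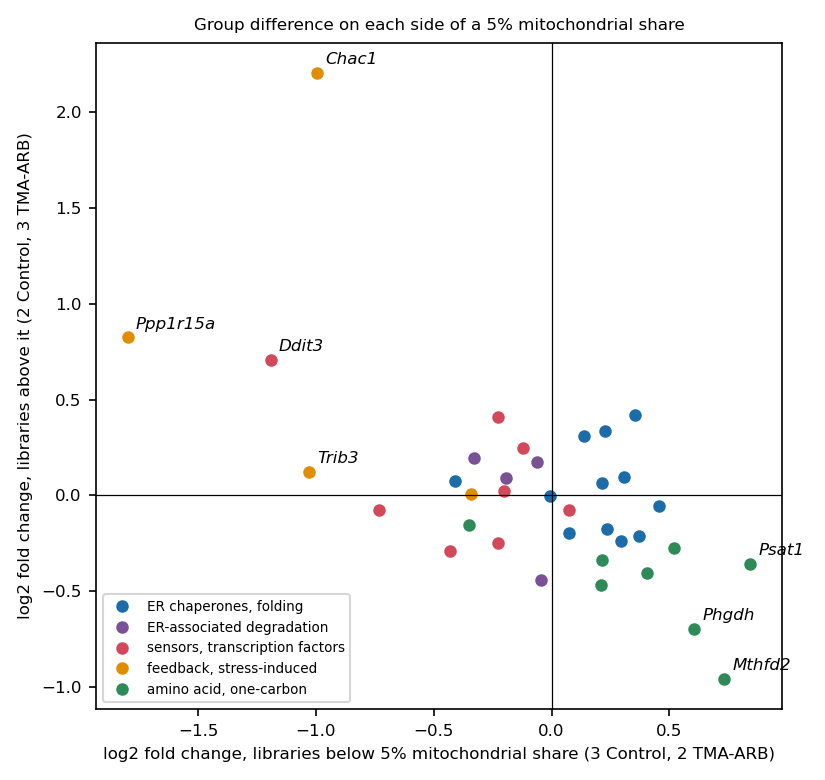
Log2 fold change of TMA-ARB over Control among libraries below a 5% mitochondrial share (horizontal axis) and above it (vertical axis) for the 36 genes, coloured by role. Regulators such as Ppp1r15a and Chac1 lie at the upper left, with -1.80 and 0.82 and with -0.99 and 2.20, and Mthfd2 and Phgdh lie at the lower right.

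Other genes of the pathways were read from 8 further lists, and edgeR called 0 of them. Among 20 other ER folding genes, 10 lay above 0 and 10 below (median log2 fold change 0.0046), and 0 had an unadjusted p under 0.05. The smallest p were those of Sil1, the nucleotide exchange factor of BiP, at 24.5 ± 2.64 CPM in Control and 17.5 ± 6.28 under TMA-ARB (log2 fold change -0.48 ± 0.26), and of Txndc11 (0.26 ± 0.20). TMA-ARB replicate 7 was highest for 8 of the 20 and above the mean for 17. Of 16 other degradation genes, 15 could be tested and 6 lay above 0 (median -0.046). The smallest p there belonged to Ubxn4, at 0.35 ± 0.23, and to Os9, at -0.29 ± 0.21, and 0 were under 0.05.

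Translocation and export genes carry new proteins into and out of the ER. Of 17, 11 lay above 0 (median 0.17), and 1 had an unadjusted p under 0.05. This was Sec61g, a subunit of the translocation channel, at 2.28 ± 0.611 CPM in Control and 4.27 ± 2.16 under TMA-ARB (SD, n = 5), with a log2 fold change of 0.91 ± 0.42 (SE; unadjusted p = 0.0482, adjusted 0.997). Sec11c, of the signal peptidase, followed at 0.48 ± 0.25. Both were highest in TMA-ARB replicate 7, as were 10 of the 17 genes.

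Among 17 of 18 other regulators of the integrated stress response that could be tested, 10 lay below 0 (median -0.054), and 1 had an unadjusted p under 0.05. This was Vldlr, a lipoprotein receptor induced by Atf4 and by low oxygen. It measured 7.43, 26.0, 13.7, 15.3 and 9.46 CPM in Control and 4.30, 5.92, 14.4, 5.64 and 6.01 CPM under TMA-ARB, with a log2 fold change of -0.99 ± 0.39 (SE; unadjusted p = 0.0238, adjusted 0.997). Its highest values were again those of Control replicate 2 and, among treated tumours, TMA-ARB replicate 8. Creb3l2, an ER-tethered transcription factor, had a log2 fold change of -0.42 ± 0.20.

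The further metabolic lists lay near 0. Of 20 other amino acid and one-carbon genes, 11 lay above 0 (median 0.015), and the smallest p were those of the glycine transporter Slc6a9 (-0.51 ± 0.32) and of Shmt1 (0.34 ± 0.26). Of 18 other cytosolic tRNA synthetases, 8 lay above 0 (median -0.015), with Qars at -0.16 ± 0.15 and Sars at -0.17 ± 0.16. TMA-ARB replicate 6 was highest for 10 of these 18 and TMA-ARB replicate 8 lowest for 8. TMA-ARB replicate 7, at 0.30 for the 8 amino acid, one-carbon and tRNA-charging genes of the set, lay at -0.014 for the synthetases.

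Stress responses of other compartments were read in the same way. Of 12 cytosolic heat shock genes, 7 lay above 0 (median 0.019), and the smallest p were those of Hspa1a (-0.69 ± 0.42) and Hsp90aa1 (0.35 ± 0.27). Of 10 genes of the mitochondrial unfolded protein response, 5 lay above 0 (median 0.020), with the protease Lonp1 at -0.32 ± 0.17 and the chaperonin Hspe1 at 0.39 ± 0.26. The mitochondrial list was highest in TMA-ARB replicate 7, the tumour with the highest chaperones, with a mean log2 deviation of 0.34 and 8 of the 10 genes above their mean. In these 4 lists 0 genes had an unadjusted p under 0.05.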

How the data were processed

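Poly-A RNA of 10 tumours had been made into libraries with a strand-marking kit, per the labels' protocols. The deposited table holds the authors' estimated counts, with a column per tumour matched by the sample name in the labels. Per the submitters' processing notes Salmon and mm10 were used; its version, the annotation and the strand setting are not given in the sources used here. The counts were whole numbers. Because Salmon shares reads out between like transcripts, genes with near copies are less certain.

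EdgeR 4.0.16 (R 4.3.3) tested TMA-ARB against Control with TMM scaling, its default expression filter, robust quasi-likelihood F tests and Benjamini-Hochberg adjustment over all genes that passed. The standard error is the absolute log2 fold change divided by the square root of F. CPM use TMM-scaled library sizes, and levels per kilobase use merged GENCODE release 21 exons. List deviations are means of log2(CPM + 0.5). The members, lists and alternatives were chosen with earlier results of these data known. In each role the 2 genes of smallest p and the most abundant per kilobase are given in full, and from each further list those at an unadjusted p under 0.05 or the 2 of smallest p.

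Alternatives were DESeq2 1.42.0, limma 3.58.1 (voom with sample weights), RLE scaling, no filter, a mean of at least 5 CPM, the log2 mitochondrial share as a covariate, each side of a 5% share, mitochondrial genes left out, and each library left out. Leaving out 2 libraries together and the interaction were added after seeing the data. The edgeR step was tested on simulated data. Near copies were found with BLAST+ 2.17.0 (at least 95% identity over 200.0 bases). Intervals cover the spread between libraries, and reads without molecular identifiers are not independent molecules.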

Additional observations from a re-analysis of the deposited data

Results flagged for a closer look

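In 72 groups of 5 tumours (36 genes in each treatment), 7 held a tumour whose gap to its nearest neighbour was more than 0.71 of the group's range. Chance gives such a gap in about 1 of 20 groups of 5 independent, normally distributed values. The 36 genes were measured in the same tumours and are not independent. Whether 7 of 72 exceeds the share over all genes was not tested. TMA-ARB replicate 6 stood above the other treated tumours in the tRNA synthetases Nars, at 253 CPM against 133 to 160, and Aars, at 209 against 115 to 127. TMA-ARB replicate 7 stood above them in the chaperone-complex gene Sdf2l1, at 90.4 CPM against 59.2 to 64.9. TMA-ARB replicate 8 stood below them in Slc7a11, at 2.51 CPM against 5.33 to 6.51. Among controls, replicate 2 stood above the others in Atf6, at 42.5 CPM against 27.5 to 29.2. Control replicate 4 was above them in Pdia6, at 448 CPM against 389 to 395, and Control replicate 5 below them in Cebpb, at 92.2 CPM against 202 to 264.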

How the results depend on the processing

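Members called stayed at 0 in the 21 alternatives run. Of 294 fold changes of the 14 genes given in full, 265 kept their direction and 29, in 8 genes, reversed; the lowest adjusted p was 0.197. No paired analysis was possible because the groups share no replicate number. The cause of the changes below was not tested.

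Genes called were 2 with DESeq2, 4 above the 5% mitochondrial share and 3 without TMA-ARB replicates 6 and 7. Voom with weights gave Herpud1 0.011, Cebpb 0.25, Trib3 0.039, Psat1 -0.18 and a median of -0.13 for other amino acid genes. The mitochondrial covariate gave Phgdh 0.14, Dnajc3 0.44 and Psat1 0.47. With it the median over the 36 genes was 0.052, and 21 of them lay above 0. Below 5%, medians were -0.13 (degradation), -1.01 (regulators), 0.46 (amino acid targets), 0.23 (other folding), 0.055 (other degradation) and 0.17 (tRNA synthetases), with Sel1l -0.061, Chac1 -0.99 and Phgdh 0.60. Above 5%, they were 0.13 (degradation), 0.47 (regulators), -0.11 (other amino acid) and 0.30 (heat shock), with Herpud1 0.093, Trib3 0.12, Ppp1r15a 0.82 and Psat1 -0.36. Without Control replicate 2 and TMA-ARB replicate 8, Phgdh was 0.039. Without TMA-ARB replicates 6 and 7, medians were -0.15 (members), 0.11 (degradation), -0.22 (other folding), -0.17 (other amino acid) and -0.18 (mitochondrial response), with Herpud1 0.056, Cebpb 0.14, Ppp1r15a 0.36 and Psat1 -0.40.

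Leaving out single libraries gave -0.096 to 0.075 for the other amino acid median, 2.69 to 8.38 for the mitochondrial share difference, -0.24 to 0.16 for Phgdh, -0.86 to 0.23 for Ppp1r15a, -0.052 to 0.40 for Psat1 and -0.096 to 0.034 for Herpud1. The lowest depth of a named gene was 19 counts (Chac1).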
